A study of Mus musculus with 6 samples.

Results

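The genes described here are the BCL2 family regulators of the mitochondrial pathway of apoptosis, measured in 4T1 cells, a mouse mammary carcinoma line that the labels class as triple-negative breast cancer (TNBC). The members were chosen by name: 3 anti-apoptotic genes (Bcl2, Bcl2l1 and Mcl1), 2 effectors (Bax and Bak1) and 5 BH3-only genes (Bmf, Bbc3, Bcl2l11, Bid and Pmaip1). 9 of the 10 have a row in the authors' table of 12656 genes, and Pmaip1 is not analysed here. RNA sequencing was done on 3 libraries from 4T1 cells given the solvent DMSO and on 3 from 4T1 cells given LP-184, a DNA-damaging compound, for 48 h. The sources used here give neither the dose of LP-184 nor the duration of the DMSO exposure. All 6 libraries come from 1 cell line, and the labels name no difference between the groups other than the compound. Whether replicates came from separate cultures is not stated, so the p-values reflect only how far these libraries differ from each other, and that spread may be technical.

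Proteins of the BCL2 family decide whether the outer mitochondrial membrane is breached, the step that releases cytochrome c and starts the caspase cascade. The anti-apoptotic members hold the effectors BAX and BAK in check. The BH3-only members are sensors of stress that bind the anti-apoptotic proteins through their BH3 helix, and some of them also activate the effectors directly. DNA damage is one of the classical signals that shift this balance, and the amounts of protein are further set by stability, cleavage and phosphorylation, which RNA does not show.

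The feature that joins all of these genes is the BH3 core. To show it, the 30 bases that code for it were read from the longest annotated coding sequence of each gene (GENCODE M21, GRCm38). In each protein it was the only match to a pattern with an aliphatic residue or alanine, then a leucine, then a pair of a small residue and aspartate, at fixed spacing. Capitals mark the codon of the leucine and the codons of that pair, and the stretches are written 5′ to 3′ on the coding strand.

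Bcl2 (chr1:106712584-106712613, reverse strand): gtccatctgaccCTCcgccgggctGGGGAT
Bcl2l1 (chr2:152829706-152829735, reverse strand): gtgaagcaagcgCTGagagaggcaGGCGAT
Mcl1 (chr3:95659424-95659453, forward strand): gcgctggagaccCTGcggcgcgtgGGCGAC
Bax (chr7:45466006-45466035, reverse strand): ctgagcgagtgtCTCcggcgaattGGAGAT
Bak1 (chr17:27022540-27022569, reverse strand): gtgggtcggcagCTTgctctcatcGGAGAT
Bcl2l11 (chr2:128147138-128147167, forward strand): attgcacaggagCTGcggcggatcGGAGAC
Bbc3 (chr7:16313761-16313790, forward strand): atcggggcccagCTGcggcggatgGCGGAC
Bmf (chr2:118545109-118545138, reverse strand): atcgccagaaagCTTcagtgtattGCAGAC
Bid (chr6:120897298-120897327, reverse strand): attgccagacatCTCgcccaaataGGCGAT

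Each stretch lies within 1 exon, and each of the 9 genes had 1 match. The pair is alanine and aspartate in Bmf and Bbc3, and glycine and aspartate in the other 7. Base identity over the 30 positions was highest between Bbc3 and Bcl2l11, at 20 bases, followed by Bmf with each of them, at 18, and lowest between Bcl2l1 and Bmf, at 8 bases. Bcl2 and Mcl1 shared 17. These identities describe the sequences and do not bear on how much of each RNA was measured.

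The values are log2 CPM, the log2 of read counts scaled to a common library size. Read totals over the table were 18864368 to 22471753 per library. A gene was tested with limma if 3 or more libraries reached 1 CPM (log2 CPM of 0), which 11931 of the 12656 genes did. It was called changed at a Benjamini-Hochberg adjusted p, over all genes tested, under 0.05. LP-184 changed most of the table: 78.3% of the genes tested passed the threshold, 38.3% higher and 40.0% lower, and for 79.1% the 2 groups of libraries did not overlap. A member past the threshold is therefore no exception among genes, and the size and direction of its change carry more than its call. The 4 epithelial markers looked up (Epcam, Krt8, Krt18 and Cdh1) summed to 2570 to 2600 CPM in DMSO and 2310 to 2330 CPM in LP-184, with Krt8 and Krt18 called lower (-0.47 and -0.34, log2 fold change) and Epcam and Cdh1 called higher (0.36 and 0.38). None of the 4 leukocyte and 3 endothelial markers has a row, and of 4 fibroblast markers only Pdgfra has one, at 6.37 to 7.62 CPM in DMSO and 8.12 to 10.3 CPM in LP-184. In bulk RNA, fewer cells with a transcript and less of it per cell cannot be told apart.

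All 9 members in the table were tested. Bmf passed the filter only through its level in LP-184, so a difference between its groups was in part fixed by the filter. Of the 9, 5 were higher (Mcl1, Bax, Bak1, Bmf and Bcl2l11), 2 were lower (Bcl2 and Bcl2l1) and 2 did not pass (Bbc3 and Bid), against 78.3% of all genes that passed in either direction. Without Bmf, 4 of 8 were higher and 2 lower. By role, the anti-apoptotic genes had 2 lower and 1 higher, both effectors were higher, and of 4 BH3-only genes 2 were higher and 2 did not pass. The median log2 fold change was -1.06 for the anti-apoptotic genes, 0.44 for the effectors and 0.40 for the BH3-only genes, against -0.01 for all genes tested. The BH3-only median includes Bmf. Without Bmf the values were -0.10 (Bbc3), 0.06 (Bid) and 0.75 (Bcl2l11), and the middle value was 0.06. Lists of 2 to 4 genes were not tested as lists. The 2 groups did not overlap for 7 of the 9, the same 7 that passed, against 79.1% of all genes tested.

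**Figure D1:**
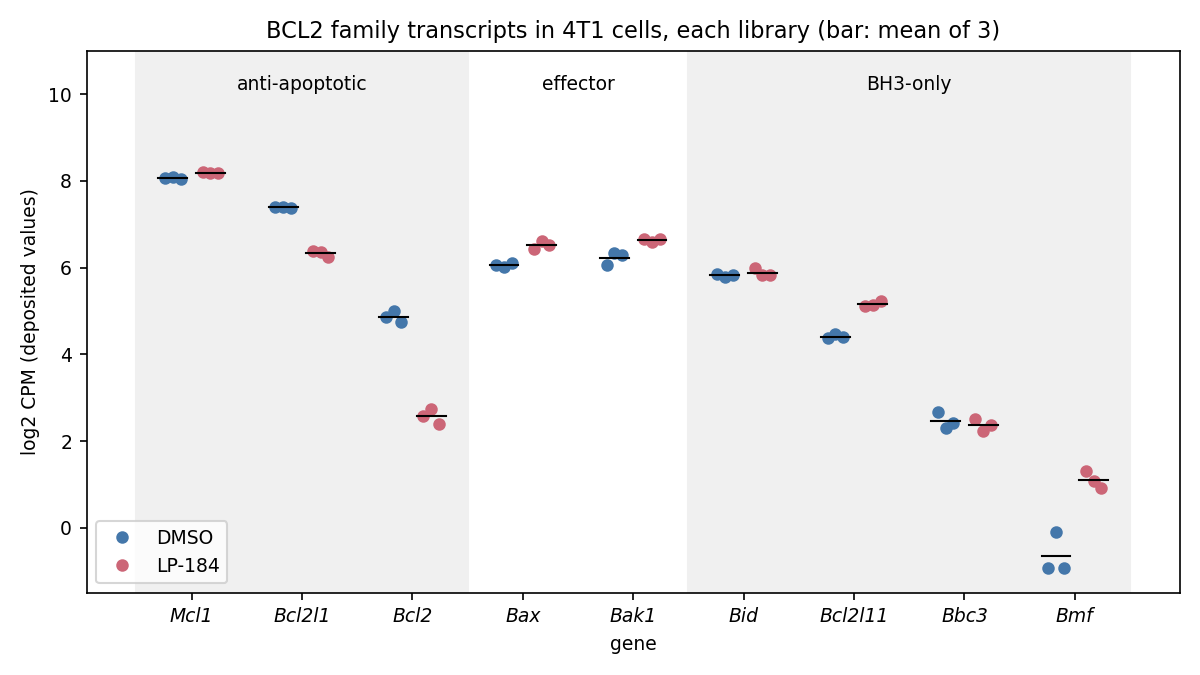
Deposited log2 CPM (y axis) of the 9 measured BCL2 family genes (x axis, grouped by role) in the 3 DMSO and 3 LP-184 libraries, 1 point per library, with a bar at each group's mean. Bcl2 and Bcl2l1 are lower in every LP-184 library, Bmf and Bcl2l11 are higher in every one, and the groups overlap for Bid and Bbc3.

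The largest fall was that of Bcl2, the founding anti-apoptotic gene, whose protein sits in the outer mitochondrial and endoplasmic reticulum membranes. Bcl2 (GRCm38 chromosome 1, 106538178 to 106714274, reverse strand) stood at 28.7, 31.8 and 26.5 CPM in the DMSO libraries, in the order of their replicate numbers 1 to 3, and at 5.83, 6.56 and 5.14 CPM in the LP-184 libraries. Every LP-184 library was thus far below every DMSO library. Its log2 fold change, LP-184 minus DMSO, was -2.30 ± 0.11 (SE, n = 3 each; limma adjusted p = 7.7e-20), a 4.91-fold lower level, resting on 1714 reads in DMSO and 368 in LP-184.

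Bcl2l1, which encodes BCL-XL (and, by alternative splicing, the pro-apoptotic BCL-XS), fell by a smaller factor from a much higher level. Bcl2l1 (chromosome 2, 152780668 to 152831728, reverse strand) stood at 169, 167 and 166 CPM in the DMSO libraries and at 83.2, 81.3 and 76.2 CPM in the LP-184 libraries. The SD of the DMSO libraries was 1.13 CPM, and the groups did not overlap. For Bcl2l1 the log2 fold change was -1.06 ± 0.04 (SE, n = 3 each; limma adjusted p = 7.4e-24), a 2.08-fold lower level. Only 12.6% of all genes tested passed the threshold with a fall of 2-fold or more, and Bcl2 and Bcl2l1 are both among them. The table gives 1 value per gene, so the 2 splice forms were not told apart.

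Mcl1, an anti-apoptotic gene with a short-lived mRNA and protein, did not follow them. Mcl1 (chromosome 3, 95658788 to 95663176, forward strand) stood at 269, 272 and 264 CPM in DMSO and at 295, 289 and 288 CPM in LP-184. The groups did not overlap, but the shift was small: the log2 fold change was 0.12 ± 0.03 (SE, n = 3 each; limma adjusted p = 1.0e-04), a rise of 8.45%. With the gene-length trend described further on taken out, Mcl1 was at -0.20 (limma adjusted p = 3.8e-07), so its direction depends on that choice.

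The effectors form the pores in the outer mitochondrial membrane and were both modestly higher. Bax (chromosome 7, 45461697 to 45466898, reverse strand) stood at 66.2, 65.0 and 68.8 CPM in DMSO and at 86.0, 98.3 and 92.2 CPM in LP-184. Bak1 (chromosome 17, 27019810 to 27029009, reverse strand) stood at 66.6, 80.3 and 77.7 CPM in DMSO and at 101, 95.7 and 101 CPM in LP-184. Each gene was higher in all 3 LP-184 libraries than in any DMSO library, and DMSO replicate 1 was the lowest for Bak1. Log2 fold changes were 0.46 ± 0.05 for Bax and 0.41 ± 0.05 for Bak1 (SE, n = 3 each; limma adjusted p = 2.3e-11 and 2.9e-09), or 1.38-fold and 1.33-fold. With the length trend removed, Bax was at 0.12 and Bak1 was at 0.05 and did not pass. Exons of Bak1 share up to 437 bases with Ggnbp1 on the opposite strand, a gene at 0.482 to 0.839 CPM in these 6 libraries. Those of Bax share 192 bases with Gm45808 on the same strand. Exons of Bcl2 share 558 bases with D630008O14Rik on the opposite strand. Neither Gm45808 nor D630008O14Rik has a row in the authors' table. The sources used here do not say whether reads were counted by strand.

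Among the BH3-only genes, Bmf rose by the largest factor from the lowest level. Its protein is held by the dynein light chain of the actin-bound myosin V motor until stress or loss of attachment releases it. Bmf (chromosome 2, 118528757 to 118549687, reverse strand) had 8, 18 and 8 reads in the DMSO libraries, or 0.429, 0.839 and 0.428 CPM, and 54, 42 and 34 reads in the LP-184 libraries, or 2.37, 2.01 and 1.78 CPM. DMSO replicate 2 was above the other DMSO libraries and still under every LP-184 library. Bmf had a log2 fold change of 1.74 ± 0.32 (SE, n = 3 each; limma adjusted p = 1.1e-05), with a 95% interval of 1.08 to 2.40. It was the only member called with a rise of 2-fold or more, which 8.08% of all genes tested were. With log2(CPM + 1) in place of the deposited scale the difference was 0.97.

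Bcl2l11 encodes BIM, which binds all anti-apoptotic members and activates the effectors. Bcl2l11 (chromosome 2, 128126038 to 128162547, forward strand) stood at 20.5, 21.9 and 20.9 CPM in DMSO and at 34.6, 35.0 and 37.4 CPM in LP-184. The spread within each group was small beside the gap between them. Bcl2l11 had a log2 fold change of 0.75 ± 0.07 (SE, n = 3 each; limma adjusted p = 5.6e-12), a 1.68-fold higher level.

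The other 2 BH3-only genes measured did not pass the threshold. Bbc3, which encodes PUMA, a classical target of p53, stood at 6.33, 4.80 and 5.24 CPM in DMSO and at 5.56, 4.60 and 5.03 CPM in LP-184. Its groups overlapped, and the log2 fold change was -0.10 ± 0.16 (SE, n = 3 each; limma adjusted p = 0.58), with a 95% interval of -0.43 to 0.23. Bid, whose protein links death receptors to mitochondria once caspase-8 has cut it, stood at 57.5, 55.2 and 56.7 CPM in DMSO and at 62.9, 57.2 and 56.7 CPM in LP-184. LP-184 replicate 3 was level with DMSO replicate 3. The log2 fold change was 0.06 ± 0.05 (SE, n = 3 each; limma adjusted p = 0.271), with a 95% interval of -0.04 to 0.16, and median centring gave 0.15, past the threshold (adjusted p = 0.00772). Exons of Bid share 628 bases with Bcl2l13, another BCL2 relative on the opposite strand, so reads there cannot be told apart without strand. Bcl2l13 itself had a log2 fold change of 0.06 ± 0.05 (SE) and did not pass.

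The authors' deposited table gives log2 fold changes of -2.31 for Bcl2, -1.06 for Bcl2l1, 0.12 for Mcl1, 0.47 for Bax, 0.40 for Bak1, 0.75 for Bcl2l11 and 1.83 for Bmf. For Bid and Bbc3 the authors' deposited table gives adjusted p-values of 0.23 and 0.602.

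**Figure D2:**
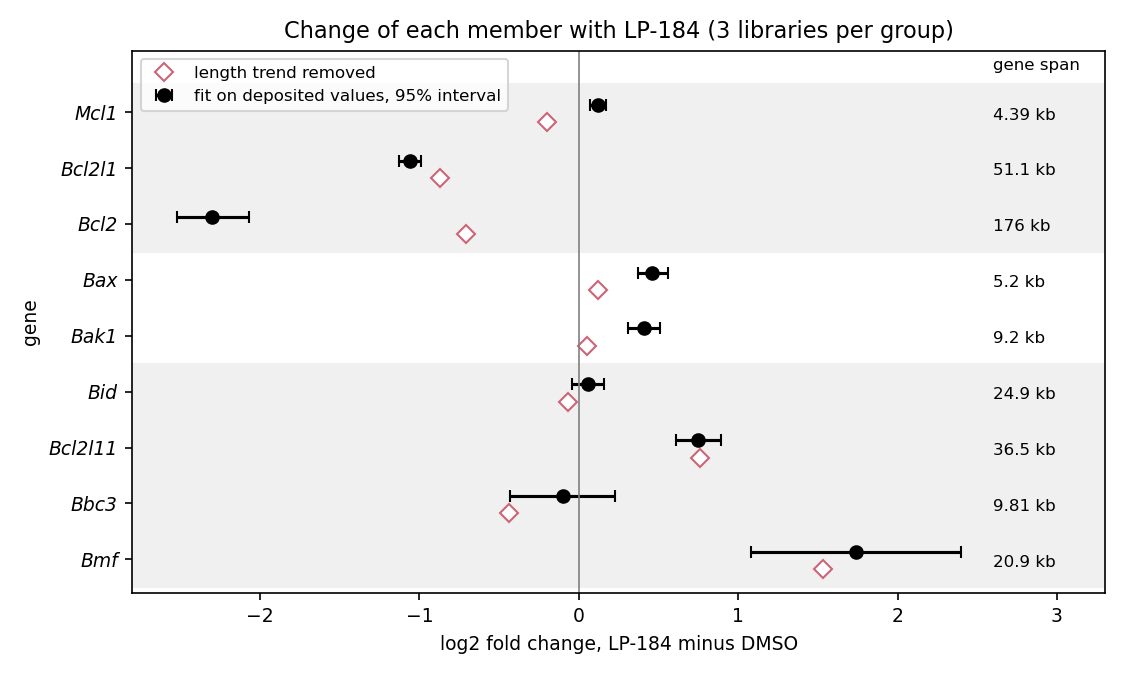
Log2 fold change of LP-184 against DMSO (x axis) for each member (y axis), as fitted on the deposited values (black, with the 95% interval, n = 3 libraries per group) and after removal of the length trend (open diamonds), with each gene's annotated span at the right. Bcl2 moves from -2.30 to -0.71 and Mcl1 crosses 0, while Bmf, Bcl2l11 and Bcl2l1 shift less.

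Fold changes in these libraries follow gene length, and the members span 4.39 kb (Mcl1) to 176 kb (Bcl2). Among genes of 10 kb or less, which include Mcl1, Bax, Bak1 and Bbc3, the median log2 fold change was 0.24, with 49.6% called higher and 21.7% lower. Among genes of 30 to 60 kb, which include Bcl2l1 and Bcl2l11, it was -0.09. Among the 687 genes above 150 kb, which include Bcl2, it was -2.00, with 92.0% called lower. The fall of Bcl2 was thus one that most genes of its length class shared in direction. A loess curve of fold change on span gave -1.58 at the span of Bcl2, -0.19 at that of Bcl2l1, 0.21 at that of Bmf and -0.01 at that of Bcl2l11. Bcl2 and Bcl2l1 lay below the curve, and Bmf and Bcl2l11 above it. The part of gene length in these changes was not tested.

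With this trend removed from the LP-184 libraries and the fit repeated, Bcl2 was at -0.71, Bcl2l1 at -0.87, Bmf at 1.53 and Bcl2l11 at 0.76, all past the threshold (limma adjusted p = 3.7e-07, 1.9e-15, 2.0e-04 and 1.3e-09). The curve was taken as fixed, so p-values on this scale cover the spread between libraries only. They do not cover the error of the curve or the scatter of genes around it. Bax kept a smaller rise of 0.12 (limma adjusted p = 0.0291). Bak1 was at 0.05 and no longer passed (limma adjusted p = 0.416). Bbc3 was at -0.44 and now passed as lower (limma adjusted p = 0.0241). On this scale all 3 anti-apoptotic genes were lower, and the count over the 9 members was 3 higher and 4 lower, against 35.3% higher and 38.9% lower of all 11462 genes on that scale. Bmf is among the 3 higher, and on this scale too its difference was in part fixed by the filter. Bcl2l1 and Bcl2l11 have like spans of 51.1 and 36.5 kb and moved in opposite directions on either scale. Both directions were common at such spans: before the trend was removed, 31.9% of genes of 30 to 60 kb were called higher and 45.3% lower.

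**Figure D3:**
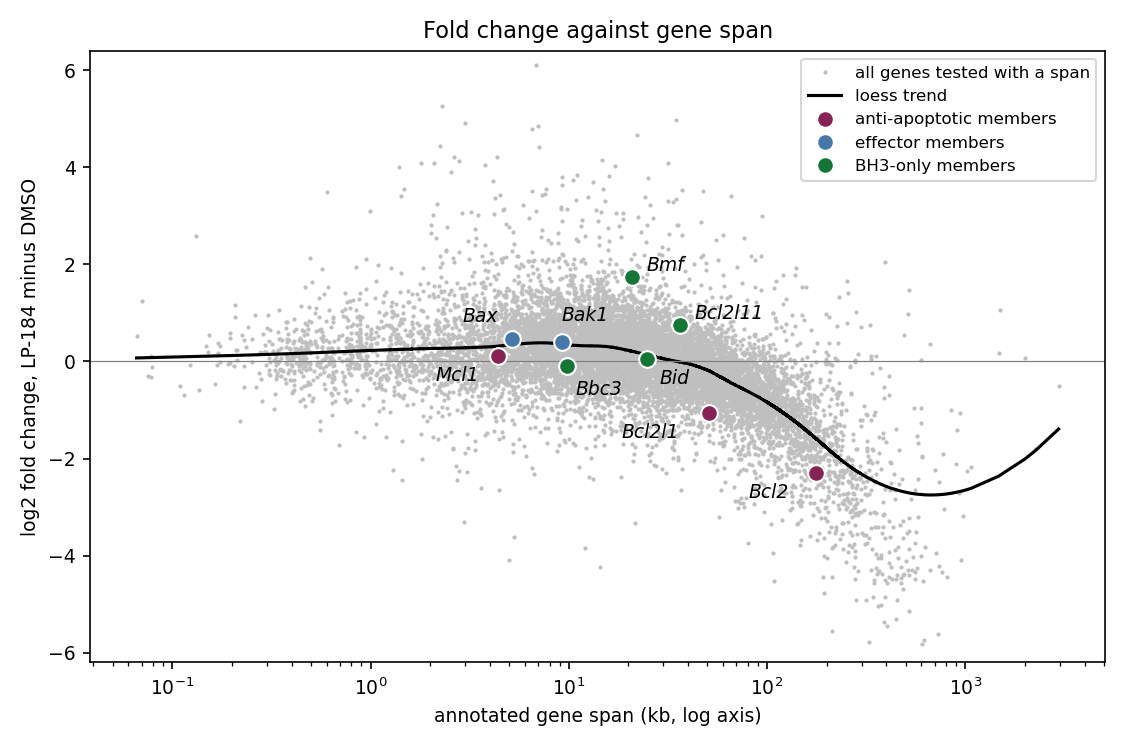
Log2 fold change of LP-184 against DMSO (y axis) against annotated gene span in kb (log x axis) for the 11462 genes tested with a span (grey), with the loess trend (line) and the BCL2 family members coloured by role. Bcl2, at 176 kb, lies 0.71 below the curve where the curve falls, Bcl2l1 lies 0.87 below it, and Bcl2l11 and Bmf lie 0.76 and 1.53 above it.

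Levels were compared between genes as CPM per kb of annotated exon. In DMSO the order was Mcl1 (78.4 ± 1.22 CPM per kb, SD, n = 3), Bax (42.3 ± 1.22), Bcl2l1 (36.5 ± 0.246), Bak1 (31.1 ± 3.03), Bid (15.9 ± 0.324), Bcl2 (3.17 ± 0.290), Bcl2l11 (2.63 ± 0.0906), Bbc3 (2.57 ± 0.370) and Bmf (0.108 ± 0.0451). Neighbours in this order did not overlap between libraries except Bcl2l11 and Bbc3. In LP-184, Bcl2l1 dropped to the fourth place at 17.5 ± 0.785 CPM per kb, where it overlapped Bid (16.6 ± 0.969), and Bcl2 dropped to 0.638 ± 0.0780, below Bcl2l11 (4.44 ± 0.188) and Bbc3 (2.38 ± 0.228). With the length of the longest protein-coding transcript in place of all exons, Bcl2l1 ranked above Bax and Bcl2l11 above Bcl2 in DMSO, and the order in LP-184 was as given.

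Within the anti-apoptotic trio, Mcl1 held the largest share of per-length signal in every library. Its share was 66.3%, 66.6% and 66.3% in the DMSO libraries and 82.1%, 82.1% and 83.1% in the LP-184 libraries. The share of Bcl2l1 was 31.0%, 30.5% and 31.2% in DMSO and 17.3%, 17.2% and 16.4% in LP-184, and that of Bcl2 went from 2.68% ± 0.213 to 0.618% ± 0.0727 (SD, n = 3 each). The summed level of the trio was 118 ± 1.73 CPM per kb in DMSO and 103 ± 1.53 in LP-184, while that of Bax and Bak1 was 73.4 ± 3.27 and 99.5 ± 2.84. Shares on the longest transcript were lower for Mcl1, at 53.1% ± 0.231 in DMSO and 72.6% ± 0.751 in LP-184. These sums weigh RNA only and say nothing of protein.

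The ratio of Bax to Bcl2 RNA is a common summary of this balance. On the per-length scale the log2 ratio of Bax to Bcl2 was 3.74, 3.57 and 3.91 in the DMSO libraries and 6.42, 6.44 and 6.70 in the LP-184 libraries. All LP-184 libraries were higher. The ratio rose from 13.5 ± 1.60 to 92.2 ± 10.2 (SD, n = 3 each). The difference of the mean log2 ratios was 2.78, and with the length trend removed it was 0.85, a 1.81-fold rather than a 6.87-fold higher ratio. Against the shorter gene Bcl2l1, the ratio of Bax was 1.16 ± 0.0379 in DMSO and 3.35 ± 0.292 in LP-184. No test was made of these ratios.

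**Figure D4:**
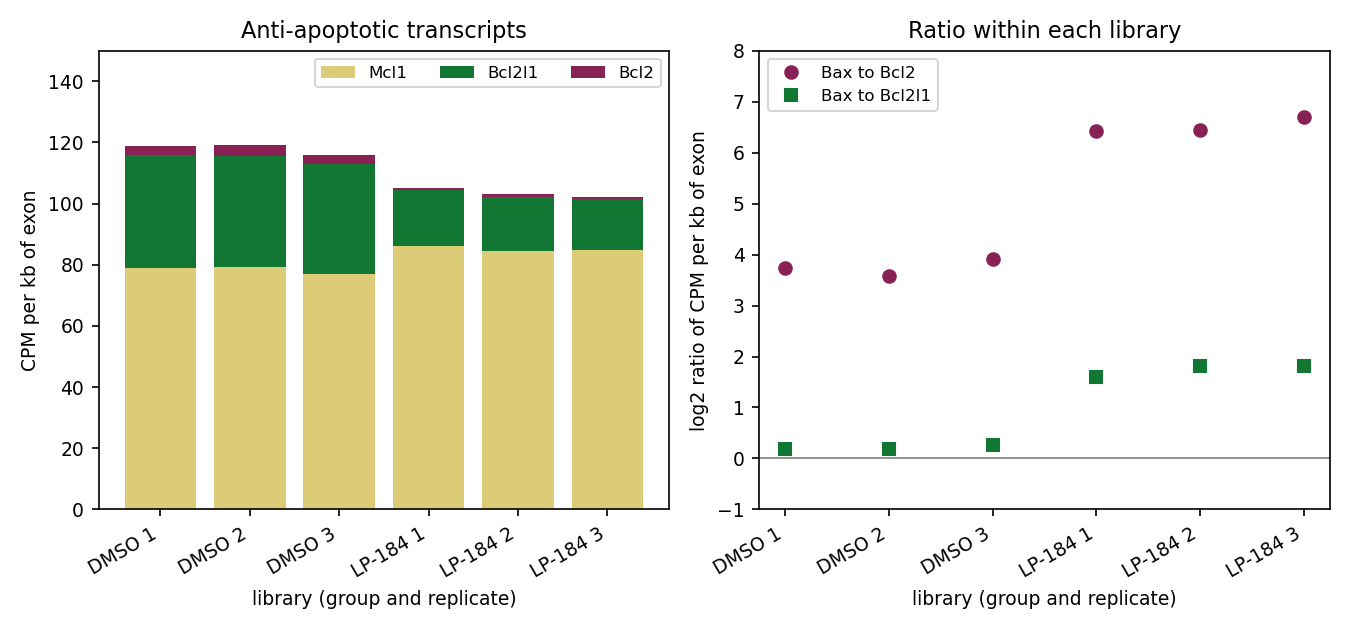
Left, CPM per kb of exon (y axis) of Mcl1, Bcl2l1 and Bcl2, stacked, in each library (x axis). Right, the log2 ratio of Bax to Bcl2 and of Bax to Bcl2l1 on the same per-length scale in each library. The share of Bcl2l1 is 30.5% to 31.2% in DMSO and 16.4% to 17.3% in LP-184, and both ratios are higher in every LP-184 library.

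The promoters of these genes were searched because members of 1 role moved in different directions. RefSeq (GRCm38.p6) lists 16 start windows for the 9 genes, and the 250 bases before each start were read on both strands for 7 motifs, each set against all 32851 windows of the same length. A p53 half-site was matched in windows of Bax and Bmf, and in 7.13% of all windows. The FOXO site TGTTTAC was matched for Bbc3 and Bcl2l11 (3.17% of all windows), an NF-kB site for Bbc3 and Bcl2l1 (3.90%) and the E-box CACGTG for Bax and Bbc3 (6.02%). Each of these motifs, the p53 half-site included, was matched in 2 of the 16 member windows. No window of a member held AP-1 (TGANTCA, 6.75% of all windows), the cyclic AMP response element (TGACGTCA, 1.55%) or the C/EBP-ATF response element (TGATGNAA, 3.45%). The NF-kB matches of Bbc3 overlap each other, and so do 2 of its windows. Each match describes letters in a window, not a site in use. The windows of Bax and Bmf that hold a p53 half-site are shown beside that of Bcl2, which holds none of the 7 motifs. Matches did not follow direction across the members. The windows of Mcl1 and Bak1, both called higher, and of Bid hold none either, while Bcl2l1, called lower, has an NF-kB match. Capitals mark matched letters, and in Bax the second capital run is the E-box.

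Bax (chr7:45466899-45467148, reverse strand): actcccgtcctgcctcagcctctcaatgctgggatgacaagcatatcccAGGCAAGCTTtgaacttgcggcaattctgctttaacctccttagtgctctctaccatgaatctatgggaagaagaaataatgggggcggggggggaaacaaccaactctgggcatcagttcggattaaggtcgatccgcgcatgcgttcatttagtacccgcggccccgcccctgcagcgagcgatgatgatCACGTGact
Bmf (chr2:118544588-118544837, reverse strand): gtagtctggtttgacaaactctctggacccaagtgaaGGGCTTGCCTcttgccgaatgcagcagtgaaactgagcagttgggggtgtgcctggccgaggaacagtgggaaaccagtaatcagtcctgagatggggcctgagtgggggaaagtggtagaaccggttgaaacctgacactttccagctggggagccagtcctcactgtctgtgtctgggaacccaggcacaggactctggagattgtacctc
Bcl2 (chr1:106714291-106714540, reverse strand): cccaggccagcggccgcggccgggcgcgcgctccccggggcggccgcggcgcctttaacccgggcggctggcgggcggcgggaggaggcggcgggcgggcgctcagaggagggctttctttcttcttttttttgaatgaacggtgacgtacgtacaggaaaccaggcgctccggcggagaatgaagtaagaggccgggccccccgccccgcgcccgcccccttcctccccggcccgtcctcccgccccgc

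The G and C content was 74.8% for the Bcl2 window, 54.0% for that of Bax and 55.6% for that of Bmf, against a median of 52.4% for all windows. The Bmf window belongs to 1 of 3 listed starts. It lies in an intron of the longer transcripts, downstream of the exon that holds the BH3 stretch printed above, and which start the cells used was not measured.

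Of 11 tested transcription factors known to act on BH3-only genes, 7 were higher and 2 lower, and the median was 0.51 (log2 fold change). Of all genes tested, 38.3% were higher and 40.0% lower, with a median of -0.01. With the length trend removed, 7 of the 10 factors with a span were higher and 3 lower, with a median of 0.36. On that scale 35.3% of all genes were higher and 38.9% lower. Ddit3, which encodes CHOP, an activator of Bcl2l11 and Bbc3 under endoplasmic reticulum stress, rose by 3.64 ± 0.07 (SE), Atf3, a stress-induced factor, by 3.52 ± 0.05, and Rela, the p65 subunit of NF-kB, by 1.24 ± 0.04. Trp53 rose by 0.78 ± 0.08 (SE), with means of 17.3 CPM in DMSO and 29.8 CPM in LP-184, while Bbc3 did not pass. Foxo1 and Foxo3, activators of Bcl2l11, did not pass, at -0.25 and 0.13, and with the length trend removed both passed as higher, at 0.43 and 0.91. Whether any of these proteins was active was not measured.

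Of the other BCL2 relatives, 11 of 17 are in the table and 10 were tested: 4 were higher, 4 lower and 2 did not pass, and their median was -0.06. With the length trend removed, 3 were higher and 5 lower. Of all genes tested, 38.3% were higher and 40.0% lower on the deposited scale, and 35.3% and 38.9% with the trend removed. Bcl2l15, a little studied relative, had 0.187 ± 0.0270 CPM in DMSO and 7.14 ± 0.413 CPM in LP-184 (SD, n = 3 each). The log2 difference was 4.66 ± 0.28 (SE), and 2.78 with log2(CPM + 1). Bcl2l15 had 11 reads over the DMSO libraries and, like Bmf, passed the filter only through LP-184, so its call was in part fixed by the filter. Bok, an effector-like gene, rose by 0.46 ± 0.03 and Bad, a BH3-only gene controlled by survival kinases, by 0.15 ± 0.04. With the length trend removed, Bok was at 0.12 and Bad at -0.19. Bnip3, a mitophagy receptor induced by hypoxia, fell by 1.70 ± 0.10, its relative Bnip3l fell by 0.57 ± 0.03, and Bcl2l2, which encodes the anti-apoptotic BCL-W, fell by 0.43 ± 0.13. Bcl2l2 did not pass with quantile normalization, at -0.18 (limma adjusted p = 0.219).

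Downstream of the mitochondrion, 5 of 14 genes were higher, 5 lower and 4 did not pass, with a median of 0.05. With the length trend removed, 2 were higher and 7 lower. The shares over all genes tested were 38.3% higher and 40.0% lower, and 35.3% and 38.9% with the trend removed. Birc6, a very large inhibitor of apoptosis, fell by 1.75 ± 0.06 (SE) on the log2 scale and Apaf1, the scaffold of the apoptosome, by 0.62 ± 0.10. With the length trend removed, Birc6, of 175 kb, was at -0.17 and still passed (limma adjusted p = 0.0171). Apaf1, of 93.5 kb, was at 0.14 and did not pass (limma adjusted p = 0.179). Of 10 mitochondrial partners and outer membrane channels, 3 were higher and 6 lower, with a median of -0.16. The protease gene Oma1 fell by 1.32 ± 0.15, Mtfp1 rose by 0.75 ± 0.18 and Mtch1, a mitochondrial carrier homologue of the outer membrane, by 0.38 ± 0.02. With the length trend removed, Oma1 was at -1.0, Mtfp1 at 0.45 and Mtch1 at 0.08.

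Of 9 tested genes that act on the stability of the MCL1 protein, 6 were lower and 3 higher, with a median of -0.72. The list mixes genes that promote and genes that oppose the breakdown of MCL1, so its counts give no direction for the protein. With the length trend removed, 4 of the 8 with a span were higher and 2 lower, with a median of 0.02. For this list and the next, the shares over all genes tested were 38.3% higher and 40.0% lower. With the trend removed they were 35.3% and 38.9%. Btrc and Fbxw7, substrate receptors of ubiquitin ligases that mark MCL1, fell by 2.44 ± 0.12 and 1.57 ± 0.16 (SE) on the log2 scale, and Gsk3b, the kinase that primes MCL1 for them, fell by 1.53 ± 0.06. These 3 genes span 166, 164 and 157 kb, and with the length trend removed Fbxw7 (-0.09) and Gsk3b (-0.11) no longer passed and Btrc was at -0.95. Before the trend was removed, Huwe1 (-1.0), Usp9x (-0.72) and Tpt1 (-0.38) were also lower, and Marchf5 (0.45), Cdc20 (0.51) and Bag3 (1.19) were higher. With it removed, Huwe1 and Usp9x were at 0.20 and 0.14. Of 11 kinases and partners that act on BH3-only proteins, 3 were higher and 6 lower, with a median of -0.06, and 2 and 8 with the length trend removed. Mapk8, which encodes JNK1, fell by 1.38 ± 0.07, Casp8 by 0.61 ± 0.04 and the 14-3-3 gene Ywhaz, whose protein holds phosphorylated BAD, by 0.61 ± 0.02.

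Likeness of pattern was measured as the distance between log2 values over the 6 libraries after each gene was centred on its own mean, among 8641 genes with a mean log2 CPM of 3 or more. The 3 genes nearest to Bcl2 were Arfgef3 (distance 0.164), Tmem135 (0.197) and Tbcd (0.231), with log2 fold changes of -2.30, -2.31 and -2.42 and spans of 162, 265 and 165 kb. The 3 nearest to Bmf were Neurl3 (0.490), Mest (0.576) and Ncdn (0.586), which rose by 1.59, 1.80 and 1.75. With 2 groups of 3 libraries this measure mostly ranks genes by the size of their change.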

How the data were processed

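Polyadenylated RNA of 4T1 cells was sequenced in 6 libraries. The authors deposited log2 CPM per gene and library, and a second table that compares the groups by a log2 fold change and p-values, raw and adjusted, per gene, made by a test that the sources used here do not name. Tools listed in the submitters' processing notes include STAR 2.7, Subread 2.0, featureCounts, fastp and edgeR. The builds listed are hg38 and mm10, and no step is described. The control columns of the table were matched to DMSO libraries by replicate number. In the deposited log2 values 0 reads is -3.34 in every library, and once that offset was taken off, 100.0% of values came out as whole reads (tolerance 1e-06). CPM and reads come from these.

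The deposited log2 values were fitted with limma 3.58.1 in R 4.3.3 (2 groups, two-sided, empirical Bayes moderation with the variance trended on mean level). The fit was also run on simulated data in which few genes changed, unlike these data, and no result here rests on that run. Spans, exon lengths and positions come from GENCODE M21 (GRCm38, the assembly of mm10), where 12134 of 12656 symbols (95.9%) matched 1 gene. The length trend is a loess curve (span parameter 0.3) over 11462 genes. Summaries used Python 3.11.15. Named genes are all members, in each other list the 3 called genes with the largest change, and Trp53, Bad, Bok and Bcl2l2. 1 gene that the rule names is not reported here. Foxo1, Foxo3, Bcl2l13, Ggnbp1, Huwe1, Usp9x, Tpt1, Marchf5, Cdc20, Bag3 and Morrbid were named after their values were seen. The members and lists were chosen with earlier results of these data known. Alternatives were 2 other scalings, 2 pseudocounts, 2 filters, 2 variance models, limma's voom on the recovered reads, leaving out each library, a replicate block, an adjusted p under 0.01, removal of the length trend, and another gene length for levels.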

Additional observations from a re-analysis of the deposited data

How the results depend on the processing

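The members' count was 5 higher and 2 lower, and it became 3 higher and 4 lower with the length trend removed, where Mcl1 reversed to -0.20 (limma adjusted p = 3.8e-07), Bak1 lost its call (0.05) and Bbc3 gained one (-0.44). The other 17 alternatives kept both counts within 1.5 times, and Bcl2, Bcl2l1, Bax and Bcl2l11 kept their direction and stayed past the threshold in all 18. Bmf did so in the 17 in which it was tested, since the stricter filter removed it. Of the other genes that the naming rule picked, 2 reversed without the length trend, Apaf1 to 0.14 and Bad to -0.19. The mean log2 ratio of Bax to Bcl2 in LP-184 was 6.52. It was 6.69 with the longest transcript, which shifts both groups alike, and 4.59 with the length trend removed, an alternative chosen after seeing the data, against 3.74 in DMSO. Same-numbered libraries showed no shared deviation (correlations of -0.010, -0.018 and -0.006), and the main fit did not pair them. These correlations cannot show whether same-numbered libraries were prepared together. With the replicate block the count of all genes higher was 4550 and of all genes lower 4741, against 4574 and 4767, and the member counts were again 5 and 2. Leaving out 1 library at a time gave 4415 to 4493 for all genes higher and 4607 to 4655 for all genes lower, with member counts of 5 and 2 each time. Among the members depth limits Bmf most, with 34 reads over the DMSO libraries, and Bcl2l15 had 11.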

Other observations

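The long non-coding RNA gene Morrbid, known in myeloid cells as a repressor in cis of its neighbour Bcl2l11, was named here after its values were seen. Morrbid (GRCm38.p6 chromosome 2, 128298663 to 128429351 in RefSeq, a span of 131 kb) starts 136 kb past the end of Bcl2l11. It stood at 21.7, 21.9 and 21.9 CPM in DMSO replicates 1 to 3 and at 6.88, 6.61 and 6.39 CPM in LP-184 replicates 1 to 3, with no overlap between groups. The log2 fold change was -1.71 ± 0.10 (SE, n = 3 each), while that of Bcl2l11 was 0.75 ± 0.07. Among genes of 60 to 150 kb, 80.8% were called lower, with a median of -0.72. Whether the 2 changes are related was not tested.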
